A study of Homo sapiens with 28 samples.

Results

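LCN2, 4 genes of the kallikrein locus (KLK5, KLK6, KLK10 and KLK11) and CALB1 were followed through 28 RNA-seq libraries of HCT116, a human colorectal carcinoma cell line. The 6 genes are 6 of the 58278 rows of the gene table. They were chosen by measured values: LCN2, KLK5 and CALB1 are among the genes that rose most in tumors treated with Palbociclib, and KLK6, KLK10 and KLK11 were added as sister kallikreins. The comparison of Palbociclib with Control tumors, and every comparison that shares those tumors, is therefore given as a description with no p-value.

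HCT116 Luciferase-GFP cells had been implanted under the skin of male NOD SCID mice 5 weeks old. Mice received by gavage the vehicle (Control, 3 tumors), Palbociclib, an inhibitor of the kinases CDK4 and CDK6, at 100 mg/kg/day (5 tumors), Telaglenastat, an inhibitor of glutaminase spelled Telaglenestat in the labels, at 150 mg/kg/day (4 tumors), or both drugs at those doses (Combination, 4 tumors), for 23 days. The remaining 12 libraries are cultures, 3 per treatment, of cells taken out of such tumors and grown without drug. Which tumor gave which culture is not recorded, and all samples descend from 1 cell line. NOD SCID mice lack functional T and B cells but keep neutrophils, macrophages and stroma, and tumors hold mouse cells whose reads were aligned to the human genome only.

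Library totals ranged from 6273834 to 10617936 counts in tumors and from 7198540 to 13815675 in cultures. Levels are given as CPM, a gene's count scaled to a fixed library total with trimmed means over all 28 libraries, with the mean ± SD over the libraries of a group. Epithelial genes were read in every group. Of 15 colorectal epithelial markers, 8 to 11 had any counts in each group, with group means of EPCAM between 382 and 528 CPM. CEACAM6, CDX1 and ASCL2 stood at 0 in all 28 libraries, and CDH17, CEACAM5, LGR5 and GPA33 held 6 to 23 reads each over all 28.

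Lipocalin 2, the product of LCN2, is a secreted carrier of iron-loaded bacterial siderophores. It is stored in neutrophil granules and is also made by inflamed and malignant epithelia, where NF-kappaB and IL-17 signalling induce it. Kallikrein-related peptidases are secreted serine proteases encoded side by side on chromosome 19. They are released as inactive precursors and activate each other in cascades best known from the shedding of skin cells. CALB1 encodes calbindin-D28k, an EF-hand protein that buffers cytosolic calcium in neurons and in the distal tubule of the kidney.

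In the GRCh38 annotation (GENCODE release 29), LCN2 (ENSG00000148346.11) lies on the plus strand of chromosome 9 from 128149071 to 128153455 and overlaps no other gene. KLK5 (ENSG00000167754.12, 50943303 to 50953093), KLK6 (ENSG00000167755.14, 50958631 to 50969673), KLK10 (ENSG00000129451.11, 51012739 to 51020175) and KLK11 (ENSG00000167757.13, 51022216 to 51028039) lie on the minus strand of chromosome 19. They belong to a run of 15 kallikrein genes over 265.1 kb. The antisense transcript CTC-518B2.12 inside KLK10 had 474 counts over 28 libraries against 4703 for KLK10, and CTB-147C22.8, antisense to KLK5 and KLK6, had 32. The strand setting of the counting is not given in the sources used here, so reads of KLK10 and of its antisense partner cannot be told apart.

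The stretches before the RefSeq start sites of LCN2, KLK5 and KLK6 are shown because LCN2 and KLK5 are the members that differed most between Palbociclib and Control tumors, and KLK6 is the most abundant one. They are the bases before the RefSeq start site (GRCh38.p14, strand of the gene, 5′ to 3′) that lie in no annotated exon, at chr9:128149265-128149440 for LCN2, chr19:50953094-50953288 for KLK5 and chr19:50969674-50969841 for KLK6. The LCN2 stretch lies inside the GENCODE span of the gene, which begins at 128149071. Capitals mark motif matches.
LCN2: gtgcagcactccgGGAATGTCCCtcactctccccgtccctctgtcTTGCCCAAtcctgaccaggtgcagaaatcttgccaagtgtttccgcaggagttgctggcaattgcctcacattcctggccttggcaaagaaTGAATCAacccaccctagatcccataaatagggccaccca
KLK5: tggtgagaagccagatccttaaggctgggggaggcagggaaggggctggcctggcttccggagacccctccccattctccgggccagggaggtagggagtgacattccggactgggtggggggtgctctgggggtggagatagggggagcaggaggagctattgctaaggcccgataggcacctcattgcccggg
KLK6: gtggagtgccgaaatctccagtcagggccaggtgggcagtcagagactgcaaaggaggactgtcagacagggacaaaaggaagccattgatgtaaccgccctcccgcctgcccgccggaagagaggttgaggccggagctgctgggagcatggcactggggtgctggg
The capitals in LCN2 are, in order, a match to the kappaB consensus (first base 175 bases before the start site), to the C/EBP motif TTNNGNAA (143 before) and to the AP-1 motif TGANTCA (52 before), the first 2 on the opposite strand. Both strands of the windows from 250 bases before to 50 bases after a start site were searched for these 3 motifs, for the TATA box TATAAA and for the nuclear receptor motif AGGTCA. A window counted once for a motif, also where 1 stretch matched on both strands, and no printed match overlaps another. Of all 35116 RefSeq windows, 11.3% held a kappaB match, 36.8% a C/EBP match, 7.71% an AP-1 match, 11.5% a TATA box and 13.8% a nuclear receptor motif. The windows of KLK5 (1), KLK6 (1) and KLK11 (2) held none of the 5 motifs. The 2 windows of KLK10 held kappaB and C/EBP matches, all inside annotated exons, and these are not printed. A match in a window is a description of its letters.

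LCN2 separated the tumors that had received Palbociclib, alone or combined, from those that had not. LCN2 levels were 2.51, 2.82 and 3.73 CPM in the 3 Control tumors, and 12.5, 15.9, 17.3, 21.0 and 22.8 CPM in the 5 Palbociclib tumors. The 4 Telaglenastat tumors held 2.25, 3.02, 3.76 and 7.68 CPM of LCN2, and the 4 Combination tumors 16.9, 17.4, 23.7 and 38.9 CPM. Every Palbociclib and Combination tumor lay above every Control and Telaglenastat tumor, and the Palbociclib and Combination tumors overlapped. In bulk tumors, fewer cells of a type and less RNA per cell cannot be told apart. In cultures LCN2 lay between 1.19 and 5.52 CPM in 11 of 12 libraries, and Telaglenastat culture replicate 1 stood at 9.87 CPM, above its 2 group mates at 1.19 and 1.27 CPM.

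CALB1 (ENSG00000104327.7), on the minus strand of chromosome 8 from 90058608 to 90095475 with no overlapping gene, had the same top 2 groups at lower counts. The 3 Control tumors held 0.313, 1.15 and 1.93 CPM of CALB1, and the 5 Palbociclib tumors 2.10, 3.41, 6.00, 6.27 and 7.89 CPM. The 4 Telaglenastat tumors held 0.698, 1.36, 1.50 and 2.35 CPM, and the 4 Combination tumors 4.20, 10.9, 12.3 and 14.5 CPM. Combination tumors had the highest mean (10.5 ± 4.42 CPM, SD, n = 4), with 3 of 4 above every Palbociclib tumor. The lowest Palbociclib tumor was inside the Telaglenastat range. In the 12 cultures CALB1 ran from 0 to 1.17 CPM, with 0 to 15 reads per library.

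KLK5, a trypsin-like protease that activates other kallikreins in skin, was lowest in the Telaglenastat tumors. KLK5 levels were 1.99, 2.05 and 2.50 CPM in Control tumors and 6.13, 6.40, 14.9, 15.5 and 19.3 CPM in Palbociclib tumors. In Telaglenastat tumors 2 of 4 libraries had no KLK5 read and the others held 0.419 and 1.21 CPM (3 and 8 reads). A count of 0 in those 2 libraries allows up to 0.470 and 0.451 CPM (3 counts), for counting error only. The Combination tumors held 4.77, 6.40, 8.39 and 10.5 CPM. No Telaglenastat tumor reached the lowest Control tumor, and all Combination tumors lay above all Control tumors. Cultures held between 0.143 and 2.14 CPM of KLK5.

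KLK6, a protease also made by glia and by several carcinomas, was the most abundant of the 6 genes. KLK6 levels were 92.5, 97.6 and 122 CPM in Control tumors, 109, 162, 185, 187 and 206 CPM in Palbociclib tumors, 32.9, 33.8, 42.8 and 45.4 CPM in Telaglenastat tumors and 101, 116, 121 and 145 CPM in Combination tumors. The Combination and Control tumors overlapped, and the Telaglenastat tumors lay below all other tumors. The 12 cultures ran from 18.6 to 34.0 CPM.

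KLK10, a secreted member of the family, followed the same order with little spread. Its levels were 18.8, 22.5 and 22.7 CPM in Control tumors, 35.2, 40.9, 41.5, 46.9 and 47.1 CPM in Palbociclib tumors, 7.36, 8.90, 9.21 and 10.2 CPM in Telaglenastat tumors and 34.2, 36.6, 37.8 and 43.7 CPM in Combination tumors. The Palbociclib and Combination tumors overlapped, and both lay above the Control tumors, which lay above the Telaglenastat tumors. The cultures ran from 4.97 to 14.2 CPM.

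KLK11, a trypsin-like family member, was the lowest of the kallikreins described. Its levels were 0.417, 0.843 and 1.47 CPM in Control tumors, 1.97, 2.04, 2.60, 2.70 and 2.70 CPM in Palbociclib tumors, 0, 0.452, 0.558 and 0.940 CPM in Telaglenastat tumors and 1.96, 1.97, 2.25 and 2.80 CPM in Combination tumors. Every tumor given Palbociclib, alone or combined, lay above every other tumor. In cultures KLK11 ran from 0 to 0.529 CPM, and all 3 Control cultures had 0 counts, which allows up to 0.132 CPM over the group (3 counts).

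Ordered by group mean, Palbociclib tumors came first and Combination tumors second for KLK5, KLK6, KLK10 and KLK11, and the order was turned for LCN2 and CALB1. The libraries of these top 2 groups overlapped for all 6 genes. Control tumors came next for the 4 kallikreins and Telaglenastat tumors next for LCN2 and CALB1. The gap below the top 2 groups held no overlap for LCN2 (17.9 ± 4.10 against 4.18 ± 2.41 CPM), KLK5 (7.52 ± 2.48 against 2.18 ± 0.281), KLK10 (38.1 ± 4.01 against 21.3 ± 2.22) and KLK11 (2.25 ± 0.391 against 0.908 ± 0.527). It held overlap for KLK6 (121 ± 18.4 against 104 ± 15.6) and CALB1 (5.13 ± 2.33 against 1.48 ± 0.679). Among the lower groups most neighbours in the order overlapped. The exceptions were Control tumors above Telaglenastat tumors for KLK6, Control tumors above Control cultures and these above Telaglenastat tumors for KLK10, Control tumors above Control cultures for LCN2 and Palbociclib above Telaglenastat cultures for CALB1.

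Per kilobase of exon, KLK6 was also the highest of the 6 genes in Combination tumors, at a level of 61.2 ± 9.32 CPM per kb. LCN2 followed at 15.2 ± 6.42, KLK10 at 9.89 ± 1.04, KLK5 at 4.55 ± 1.50, CALB1 at 1.47 ± 0.620 and KLK11 at 0.721 ± 0.126 CPM per kb. In Control cultures the same scale gave 15.3 ± 2.60 for KLK6, 3.16 ± 0.521 for KLK10, 1.25 ± 0.198 for LCN2 and 0.842 ± 0.548 for KLK5.

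The differences between tumor groups that share the Control or Palbociclib tumors were, as a description, of unequal size over the 6 genes. Against Control tumors, Palbociclib tumors were higher by log2 fold changes of 2.58 for LCN2 (6.0-fold), 2.51 for KLK5, 2.19 for CALB1, 1.39 for KLK11, 0.99 for KLK10 and 0.71 for KLK6. Genes were ranked by fold change if they were protein-coding and rose with the groups not overlapping and a mean log2 CPM of at least 1. An edgeR adjusted p under 0.05 served only to filter this list. LCN2, KLK5 and CALB1 ranked 2, 3 and 4 in this contrast, which also picked them, so their rank lends no support. DAPP1 (2.59) stood above them, and CPA4 (2.10) was the first gene below. Against Control, Telaglenastat tumors were lower for KLK5 (-2.47), KLK6 (-1.53), KLK10 (-1.37) and KLK11 (-0.99) and near 0 for LCN2 (0.38) and CALB1 (0.28). Combination tumors were 2.90 higher than Control for LCN2, 3.12 for CALB1, 1.68 for KLK5, 1.19 for KLK11, 0.73 for KLK10 and 0.12 for KLK6 on the log2 scale. These comparisons share the Control tumors, and Combination against Palbociclib gave 0.32 for LCN2, 0.93 for CALB1, -0.83 for KLK5, -0.60 for KLK6, -0.26 for KLK10 and -0.20 for KLK11.

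GC content moved with the groups and with these values. For each library, the deviation of log2 CPM from the mean over all tumors was regressed on transcript GC content. The slope was 0.253 ± 0.00639 per SD of GC in Control and 0.284 ± 0.106 in Palbociclib tumors. It was -0.337 ± 0.0355 in Telaglenastat and -0.208 ± 0.0550 in Combination tumors, and each sign is relative to the mean tumor. The longest transcripts of LCN2 and the 4 kallikreins hold 54.6 to 58.2% GC, above 71.2 to 81.9% of tested genes, and that of CALB1 holds 32.2%, above 0.284%. With GC content and gene length corrected, Palbociclib against Control gave 2.55 for LCN2, 2.46 for KLK5 and 2.25 for CALB1. Telaglenastat against Control gave 1.21 for LCN2, -1.53 for KLK5, -0.72 for KLK6, -0.79 for KLK10, -0.20 for KLK11 and, with its sign turned, -0.19 for CALB1. Combination against Palbociclib became positive for KLK6 (0.04), KLK10 (0.21) and KLK11 (0.43) and stood at -0.05 for KLK5, while LCN2 went from 0.32 to 0.99 and CALB1 from 0.93 to 0.57. Combination against Control went from 0.12 to 0.74 for KLK6, from 0.73 to 1.20 for KLK10, from 1.19 to 1.82 for KLK11, from 1.68 to 2.41 for KLK5, from 2.90 to 3.54 for LCN2 and from 3.12 to 2.82 for CALB1. The part of GC content in the uncorrected values was not tested.

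The comparison of Combination with Telaglenastat tumors shares no library with the contrast that the rule names, although earlier results of these data were known when the genes were chosen. It asks whether the genes were higher where Palbociclib was added to Telaglenastat. All 6 genes were higher in Combination tumors, against a background of 8.93% of 14848 tested genes called higher (edgeR quasi-likelihood test, Benjamini-Hochberg adjusted p under 0.05). KLK5 rose by a log2 fold change of 4.15 ± 0.60 (SE; 17.7-fold; adjusted p = 6.64e-05) and CALB1 by 2.84 ± 0.49 (7.1-fold; adjusted p = 0.000392). LCN2 rose by 2.52 ± 0.31 (5.7-fold; adjusted p = 1.34e-05). KLK11 rose by 2.18 ± 0.56 (adjusted p = 0.00915), KLK10 by 2.10 ± 0.13 (adjusted p = 3.36e-09) and KLK6 by 1.65 ± 0.17 (adjusted p = 1.08e-06). For each of the 6 genes the 4 Combination tumors lay above the 4 Telaglenastat tumors with no overlap. In the Telaglenastat tumors KLK5 (0 to 8 reads) and KLK11 (0 to 6 reads) stayed under the 10 counts the filter asks for, and they were tested through the reads of other groups. KLK11 passed the filter only with the tumors given Palbociclib, alone or combined, where it is high, so its call lends no support beyond its counts. CALB1 had 5 to 15 reads per Telaglenastat tumor.

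These calls held under GC and length correction, where the 6 log2 fold changes ran from 1.46 (KLK6) to 3.94 (KLK5). Without Telaglenastat tumor replicate 1, which holds 8 of the 11 KLK5 reads of its group, KLK5 rose by 5.53 (adjusted p = 4.13e-05).

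The kallikreins that rose lie next to each other along the locus, apart from KLK9. Of 15 kallikreins 8 were tested and 6 rose in Combination over Telaglenastat tumors, and those 6 lie between 124.2 kb (KLK5) and 203.1 kb (KLK11) from the start of KLK1. Besides the 4 described genes these were KLK7, a chymotrypsin-like protease that KLK5 activates, at 1.78 ± 0.16 on the log2 scale (adjusted p = 2.60e-07), and KLK8, expressed in brain and skin, with 1.42 ± 0.22 (adjusted p = 0.000142). KLK9, which lies between KLK8 and KLK10, had 1 read in 28 libraries. At the ends of the locus, KLK1 stood at -0.38 ± 0.48 (adjusted p = 0.649) and KLK13 at -0.41 ± 0.49 (adjusted p = 0.624). KLK2, KLK3, KLK4, KLK12, KLK14 and KLK15 had 1 to 37 reads in all and were not tested. KLK8 and KLK9 share their spans with the read-through gene CTC-518B2.8, so reads counted for both, the near absence for KLK9 included, are uncertain. Of 43 other annotated genes within 200 kb, 4 were tested (SYT3, C19orf48, CTC-518B2.12 and CD33), with log2 fold changes from 0.11 (C19orf48) to 0.97 (SYT3) and a lowest adjusted p of 0.059 (CD33). No difference between the 6 genes and their neighbours was tested.

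KLK7 levels were highest in Combination and Palbociclib tumors, while KLK8 levels in Combination tumors lay near those of Control tumors. KLK7 held 43.0 ± 5.99 CPM in Control, 85.2 ± 15.7 in Palbociclib, 27.1 ± 5.50 in Telaglenastat and 92.2 ± 11.2 in Combination tumors, and 19.7 to 21.5 CPM on average in the 4 culture groups. KLK8 held 11.6 ± 0.706, 18.4 ± 3.65, 3.93 ± 1.39 and 10.6 ± 0.626 CPM in the same tumor groups, and 5.22 to 9.94 CPM on average in cultures.

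**Figure D1:**
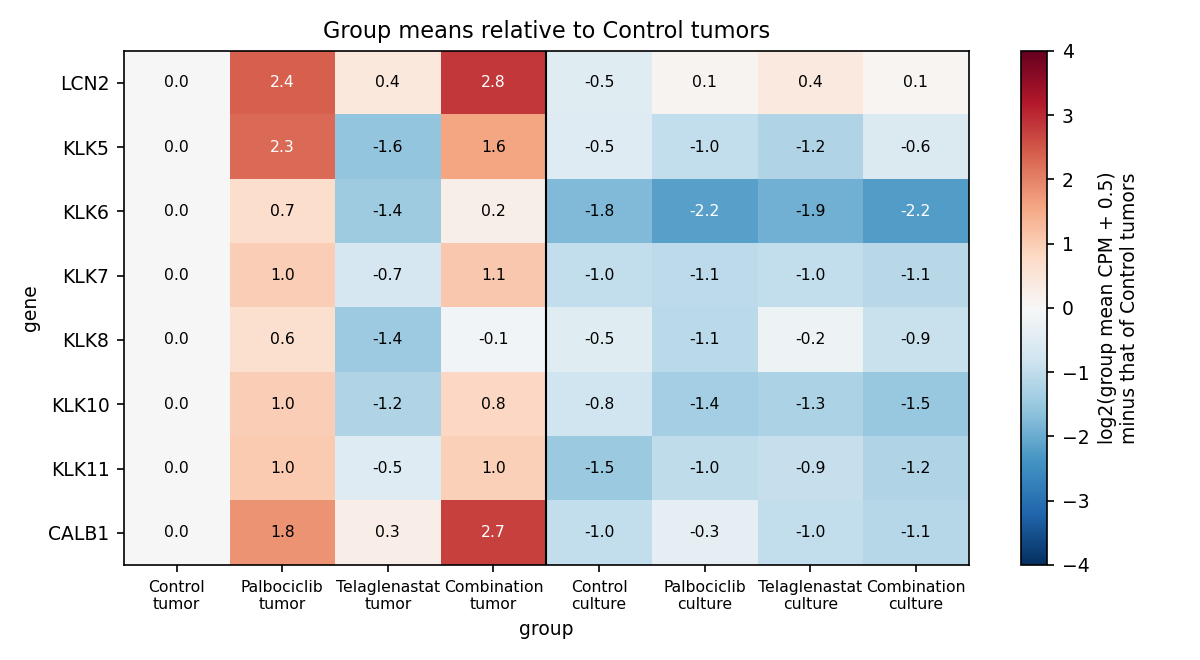
Log2(group mean CPM + 0.5) of the 6 genes, KLK7 and KLK8 in each of 8 groups minus that of Control tumors, printed in each cell and coloured from blue (lower) to red (higher). In Combination tumors LCN2 (2.8) and CALB1 (2.7) are highest, and KLK6 is lowest in the cultures (-1.8 to -2.2).

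Of 20 activators, inhibitors and substrates of kallikreins, 11 were tested, 4 rose and 2 fell in Combination over Telaglenastat tumors, with a median log2 fold change of 0.35, beside 8.93% of all tested genes called higher and 9.89% called lower and a median of 0.02. The protease inhibitors SPINT2 (0.48 ± 0.08, adjusted p = 0.000171), SERPINA5 (0.41 ± 0.13, adjusted p = 0.0301) and SPINT1 (0.39 ± 0.11, adjusted p = 0.0167) rose, as did the cell adhesion gene CDH1 (0.26 ± 0.07, adjusted p = 0.0171). The thrombin receptor gene F2R (-0.62 ± 0.08, adjusted p = 3.65e-05) and the desmoglein DSG2 (-0.26 ± 0.07, adjusted p = 0.0113) fell.

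Among genes of iron handling and of lipocalin 2 receptors, 14 of 17 were tested, 3 rose and 2 fell, beside 8.93% of all tested genes called higher and 9.89% called lower, and the median was 0.05 beside 0.02. The ferritin chains FTH1 (0.80 ± 0.08, adjusted p = 1.26e-06) and FTL (0.50 ± 0.14, adjusted p = 0.0137) and the ferric reductase CYBRD1 (0.56 ± 0.10, adjusted p = 0.000794) rose. The transferrin receptor TFRC (-0.38 ± 0.10, adjusted p = 0.00776) and IREB2, an iron-responsive regulator of mRNAs (-0.39 ± 0.06, adjusted p = 0.000236), fell.

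Of 30 genes that NF-kappaB or IL-17 signalling is known to induce, a list that leaves LCN2 itself out, 15 were tested, 6 rose and 0 fell, beside 8.93% higher and 9.89% lower over all tested genes, and the median was 0.41 beside 0.02. The highest were the antiprotease SLPI (2.70 ± 0.45, adjusted p = 0.000256), complement C3 (2.49 ± 0.31, adjusted p = 1.35e-05), the adhesion receptor ICAM1 (0.73 ± 0.22, adjusted p = 0.0254) and the apoptosis inhibitor BIRC3 (0.61 ± 0.14, adjusted p = 0.0036). SLPI levels were 7.78 ± 1.86 CPM in Combination and 1.19 ± 0.866 CPM in Telaglenastat tumors.

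Of 15 genes of calcium binding, transport and vitamin D response, a list that leaves CALB1 itself out, 9 were tested and 2 rose, beside 8.93% of all tested genes, and the median was 0.02, that of all genes. These were CALB2, the calbindin relative calretinin (0.93 ± 0.29, adjusted p = 0.0301), and CYP24A1, which breaks down vitamin D (0.75 ± 0.18, adjusted p = 0.00558).

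Of 34 genes of squamous differentiation 19 were tested, 6 rose and 2 fell, beside 8.93% higher and 9.89% lower over all tested genes, and the median was 0.61 beside 0.02. KRT4 (3.93 ± 0.97, adjusted p = 0.00705), KRT6B (3.37 ± 0.34, adjusted p = 9.66e-07), KRT5 (2.86 ± 0.33, adjusted p = 4.85e-06) and KRT6A (2.29 ± 0.59, adjusted p = 0.00942) rose, and the desmocollins DSC3 (-0.60 ± 0.12, adjusted p = 0.00134) and DSC2 (-0.38 ± 0.11, adjusted p = 0.019) fell. KRT5 levels were 119 ± 51.6 CPM in Combination and 16.4 ± 5.18 CPM in Telaglenastat tumors.

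The sums of fibroblast and keratinocyte markers differed between the same tumors, while the sums of neutrophil, macrophage and endothelial markers overlapped. The counts of higher genes given here stand beside 8.93% of all 14848 tested genes called higher. Neutrophil markers, 14 genes that include other granule proteins, summed to 0 to 1.91 CPM in Combination and 0.140 to 1.06 CPM in Telaglenastat tumors, and MPO, ELANE, S100A8 and S100A9 stood at 0 in all tumors. Immune and stromal cells in these tumors come from the mouse, and reads were aligned to the human genome only. Counts of human marker genes therefore cannot show whether such cells were present. The part of mouse reads in the tumor counts of the 6 genes was not tested. Fibroblast markers (10 genes) summed to 102 to 156 CPM in Combination and 54.2 to 67.5 CPM in Telaglenastat tumors, with 3 of 5 tested genes higher (COL1A2 1.30, COL1A1 1.27 and COL3A1 1.02 on the log2 scale) and DCN, LUM and THY1 at 0 in both groups. Keratinocyte markers (10 genes) summed to 121 to 243 CPM and 40.1 to 59.4 CPM, with 2 of 5 tested genes higher (KRT5 and KRT15) and KRT1 and LOR at 0. In Combination tumors most of this sum was KRT5, also in the squamous list, at 119 CPM against 16.4 CPM in Telaglenastat tumors. KRT10 stood at 26.9 against 22.3 CPM, KRT15 at 13.9 against 9.41 and DSG1 at 0.109 against 0.261. Macrophage markers (12 genes) summed to 10.2 to 17.3 CPM and 3.62 to 11.3 CPM, with LYZ higher among 3 tested, and C1QA, C1QB, C1QC and TYROBP at 0. Endothelial markers (8 genes) summed to 2.50 to 4.77 CPM and 2.56 to 4.54 CPM, with 1 gene tested, at 0.32 on the log2 scale. Of the colorectal epithelial markers 5 of 8 tested rose, KRT18 by 1.05 ± 0.10 among them, and VIL1 had 0 counts in the 4 Telaglenastat tumors. All 8 mitochondrial transcripts rose, with a median of 0.88, and summed to 95464 to 119215 CPM against 42642 to 66730 CPM. The part of these differences in the 6 genes' values was not tested.

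Cultures grown without drug were compared to ask whether differences between treatments outlasted the mouse. LCN2, KLK5, KLK6 and KLK10 were tested in 5 comparisons of culture groups, and 0 of 4 passed the threshold in each by edgeR and by DESeq2, beside a background of 0% called in 4 comparisons and 0.00715% (1 gene of 13985) in Combination against Control cultures. With at most 1 gene called by edgeR, the lack of calls cannot decide whether differences outlasted the mouse. At an unadjusted p under 0.05 by edgeR, 1 of 4 passed in Palbociclib against Control cultures, beside 592 of 13985 genes. In Combination against Control cultures 2 of 4 passed, beside 895 of 13985 genes, and in each other comparison 0 of 4 passed. KLK11 and CALB1 had too few reads to be tested in cultures. Over all genes 277 to 1969 passed an unadjusted p of 0.05 in edgeR, and DESeq2 called 0 to 100 genes after adjustment.

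In Combination against Control cultures KLK10 stood at -0.78 ± 0.33 (12.2 ± 2.01 against 7.16 ± 2.27 CPM, Control first; adjusted p = 0.681 by edgeR) and KLK6 at -0.50 ± 0.20 (30.3 ± 5.14 against 21.5 ± 3.18 CPM; adjusted p = 0.681). For LCN2 the values were 0.66 ± 0.73 (adjusted p = 0.80) and for KLK5 -0.09 ± 0.70 (adjusted p = 0.975). In Combination against Telaglenastat cultures, the comparison that matches the tumors, KLK5 stood at 1.00 ± 0.74 (adjusted p = 0.531), LCN2 at -0.36 ± 0.70 (adjusted p = 0.837), KLK6 at -0.33 ± 0.20 (adjusted p = 0.442) and KLK10 at -0.27 ± 0.33 (adjusted p = 0.725). Without Telaglenastat culture replicate 1 the LCN2 value turned to 1.37 (adjusted p = 0.132), and that of Telaglenastat against Control cultures went from 1.02 to -0.70 (adjusted p = 0.648). The 3 libraries per group and 1 to 17 KLK5 reads per library limit what could be detected.

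Whether the difference between Combination and Telaglenastat was larger in tumors than in cultures was tested directly in 1 fit of 28 libraries. It was larger for 4 of 6 genes, beside 8.94% of 15466 tested genes called in that direction. The difference of differences was 2.39 ± 0.32 for KLK10 (adjusted p = 2.38e-05) and 1.99 ± 0.27 for KLK6 (adjusted p = 2.56e-05) on the log2 scale. It was 2.89 ± 0.74 for LCN2 (adjusted p = 0.00871) and 3.15 ± 1.03 for KLK5 (adjusted p = 0.0342). CALB1 and KLK11 passed the filter on low counts only through tumors. CALB1 at 3.18 ± 1.16 (adjusted p = 0.0591) and KLK11 at 3.09 ± 1.26 (adjusted p = 0.0918) did not pass, while CALB1 passed with DESeq2 (adjusted p = 0.0207). KLK7 (1.89 ± 0.24, adjusted p = 1.22e-05) and KLK8 (2.17 ± 0.43, adjusted p = 0.00119) passed as well.

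The KLK6 and KLK10 calls held without any 1 library. LCN2 fell to 1.19 (adjusted p = 0.198) without Telaglenastat culture replicate 1, went to 3.54 without Combination culture replicate 1, and stood at 2.46 (adjusted p = 0.0507) with GC content and length corrected. KLK5 lost its call (adjusted p from 0.0502 to 0.118) without Telaglenastat culture replicate 1, Combination culture replicate 1, 2 or 3, Telaglenastat tumor replicate 2, 3 or 4, or Combination tumor replicate 2 or 4, and stood at 2.52 (adjusted p = 0.134) with the correction. KLK5 went to 4.54 without Telaglenastat tumor replicate 1, and KLK11 passed (adjusted p = 0.0313) without Telaglenastat culture replicate 1.

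Within the Combination treatment, tumors held more of all 6 genes than cultures, beside 19.2% of tested genes called higher in tumors. The log2 fold changes were 2.95 ± 0.53 for LCN2 (adjusted p = 5.83e-05), 2.52 ± 0.58 for KLK5 (adjusted p = 0.0011), 2.49 ± 0.20 for KLK6 (adjusted p = 1.04e-10), 2.42 ± 0.23 for KLK10 (adjusted p = 2.69e-09) and 5.26 ± 0.75 for CALB1 (adjusted p = 2.30e-06). KLK11 had 60 reads in the 4 tumors and 3 in the 3 cultures, a ratio of 19.8 with a 95% exact interval from 6.44 to 98.5 that covers counting error only, and passed with adjusted p = 0.00035. KLK11 and CALB1 (0 to 5 reads per Combination culture) entered this fit only through the tumors, where they are high, so their calls lend no support beyond their counts. Without Combination culture replicate 1 the values were 3.59 for LCN2 and 5.06 for KLK11, and without Combination culture replicate 2 that of CALB1 was 6.18.

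Within the Telaglenastat treatment 2 of 6 genes were higher in tumors than in cultures, beside a background of 19% (2943 of 15466 tested genes). KLK6 rose by 0.50 ± 0.19 (38.7 ± 6.33 against 27.2 ± 6.00 CPM; adjusted p = 0.0378) and CALB1 by 2.08 ± 0.77 (1.48 ± 0.679 against 0.332 ± 0.0589 CPM; adjusted p = 0.0298). CALB1 (5 to 15 reads per Telaglenastat tumor, 2 to 4 per culture) entered this fit only through tumors, so its call lends no support beyond its counts. LCN2 (0.06 ± 0.53), KLK10 (0.03 ± 0.23), KLK5 (-0.63 ± 0.84) and KLK11 (1.04 ± 0.84) did not pass, with adjusted p from 0.337 to 0.944. KLK6 lost its call (adjusted p from 0.0889 to 0.185) without Telaglenastat culture replicate 1 or 3 or Telaglenastat tumor replicate 1 or 3, and CALB1 (adjusted p from 0.053 to 0.0909) without Telaglenastat culture replicate 1, 2 or 3 or Telaglenastat tumor replicate 3. Without Telaglenastat culture replicate 1, LCN2 rose by 1.76 (adjusted p = 0.00708).

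As a description, the same difference between tumors and cultures was, for Palbociclib, 3.75 for KLK5, 3.58 for KLK11 (5 reads in the 3 cultures), 2.90 for KLK6, 2.62 for CALB1, 2.45 for LCN2 and 2.37 for KLK10 on the log2 scale, beside a median of 0.12 over all genes. For Control it was 1.78 for KLK6, 1.78 for CALB1, 0.81 for KLK10, 0.66 for KLK5 and 0.59 for LCN2, and KLK11 was at least 6.89-fold higher in tumors (25 reads against 0, set at 3 counts over the 3 cultures). Other genes separated tumors from cultures too: fibroblast markers summed to 54.2 to 203 CPM in tumors and 3.89 to 12.7 CPM in cultures, and keratinocyte markers to 40.1 to 251 CPM and 30.2 to 54.2 CPM. In Combination tumors over cultures 13 of 20 tested squamous genes and 11 of 15 tested NF-kappaB and IL-17 genes rose, beside 19.2% of all tested genes. Their medians were 1.94 and 1.01 beside 0.04 over all genes. Growth in the mouse, the drug and the stroma cannot be told apart in this comparison.

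**Figure D2:**
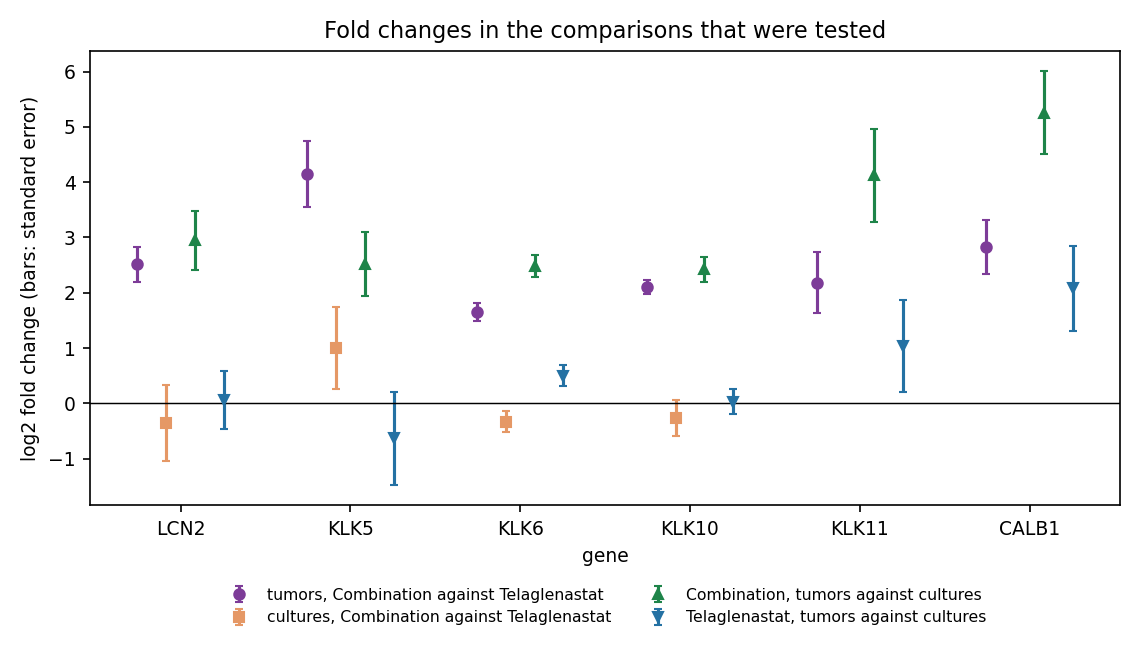
Log2 fold changes with SE (points and bars) of the 6 genes in 4 of the tested comparisons; KLK11 and CALB1 have no value in the comparison of cultures with each other. Combination against Telaglenastat sits at 1.65 to 4.15 in tumors and at -0.36 to 1.00 in cultures.

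The genes whose levels were most like those of LCN2, KLK5 and CALB1 were ranked by Pearson's r of log2 CPM over all 28 libraries among 15466 genes, as a description, since tumors and cultures form separate clusters and all libraries share the drug groups. For LCN2 they were PLCG2 (r = 0.894), the long noncoding RNA UCA1 (0.889), SLPI (0.882), RSPH3 (0.881) and LOXL4 (0.879). For KLK5 they were IGFBP6 (0.876), SUSD2 (0.869), TGM2 (0.865), KLK10 (0.861) and KRT18 (0.844). For CALB1 they were SLC44A3 (0.900), the chemokine CCL28 (0.888), the mitochondrial tRNA MT-TC (0.883), the mucin MUC13 (0.883) and RP11-297P16.4 (0.873). Within the 16 tumors these r ran from 0.841 to 0.947, and within the 12 cultures from 0.0869 to 0.677. CALB1 ranked 45th for LCN2 (r = 0.811) and KLK5 ranked 1378th for CALB1 (r = 0.633).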

How the data were processed

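Libraries of poly(A) RNA kept strand. The authors deposited 1 table of counts (reads per gene, none normalised) for 28 libraries, and the submitters' processing notes name CASAVA 1.8, STAR and hg38. The STAR version, annotation release and strand setting are not given in the sources used here. Genes kept (filterByExpr, minimum count 10) were normalised by trimmed means and tested with edgeR 4.0.16 (quasi-likelihood, Benjamini-Hochberg, threshold 0.05) in R 4.3.3 over 16 tumors (14848 genes), 12 cultures (13985) or all 28 libraries (15466). DESeq2 1.42.0, its size factors, no filter, compared groups only, 1 fit of all libraries, GC and length correction (GC content of transcripts, splines with 4 degrees of freedom), the replicate number as a block and leaving out each library were alternatives. Fold changes came from raw counts, and correlations from log2 CPM with a prior count of 2. Scripts were tested on simulated data.

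The members and gene lists were chosen with earlier results of these data known. Genes named are the members, the kallikreins, at most 4 called genes per direction and list, and the 5 genes most like LCN2, KLK5 and CALB1. IDs matched GENCODE 29 for 57940 of 58278 rows. Promoter windows from RefSeq were found for LCN2, KLK5, KLK6, KLK7, KLK10 and KLK11. None of the 37 pairs of libraries of the same group agreed within sampling noise (chi-square per degree of freedom at least 4.02). Pairs of Telaglenastat cultures lay furthest apart, at 36.7 to 46.4, while all other pairs were at or below 21.4. The GC slopes of Telaglenastat culture replicates 1, 2 and 3, relative to the mean of all cultures, were -0.0340, 0.418 and -0.0191. Every comparison with Telaglenastat cultures, the difference of differences included, rests on these libraries. P-values measure the spread between separate tumors or separately derived cultures of 1 cell line.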

Additional observations from a re-analysis of the deposited data

Results flagged for a closer look

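In groups of 4 or 5 tumors, 1 library stood apart from its group in 2 of 24 groups looked at, and chance flags about 1 in 20 groups. KLK8 was 11.5 CPM in Combination tumor replicate 1, above the other three. KLK7 was 57.5 CPM in Palbociclib tumor replicate 3, below the other four.

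The difference between Combination and Telaglenastat was itself larger in tumors than in cultures for LCN2 and 5 kallikreins by edgeR's test of the difference: 2.89 for LCN2, 3.15 for KLK5, 1.99 for KLK6, 2.39 for KLK10, 1.89 for KLK7 and 2.17 for KLK8 on the log2 scale. The LCN2 call was lost without Telaglenastat culture replicate 1 (1.19, adjusted p = 0.198) and with GC correction (adjusted p = 0.0507), and the KLK5 call with GC correction (adjusted p = 0.134) and without any 1 of 9 libraries.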

How the results depend on the processing

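All 6 calls in Combination against Telaglenastat tumors and all 6 in Combination tumors against cultures held under every alternative, and no culture comparison called a member under any; the cause of what changed was not tested. In Telaglenastat tumors against cultures 0 members (compared groups only, replicate block) or 1 (GC and length correction, with and without the replicate block) were called, and 0 to 2 without 1 library. In the difference of differences 2 were called with compared groups only, with GC correction and with GC correction plus replicate block, and 3 to 5 without 1 library. Replicate numbers did not pair tumors with each other or cultures with each other (r of same-numbered deviations -0.128 to 0.0896 in tumors, -0.423 to 0.140 in cultures). Whether they pair a tumor with a culture was not examined. The replicate block alone kept 6, 6 and 4 calls in the other 3 tests of tumors.

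Of 1168 member values 1108 kept direction and side of the threshold, 29 lost it, 6 gained it and 25 turned, none of them a called value. KLK5 in Combination against Control cultures (-0.09) turned to 0.26 with GC correction, 0.14 with the replicate block, 0.49 with both, and ran from -0.54 to 0.34 without 1 library. In Combination against Telaglenastat cultures KLK6 turned to 0.0702 with GC correction and to 0.0699 with the block added, and LCN2 to 0.17 with both, with LCN2 from -1.01 to 1.37 and KLK10 from -0.53 to 0.0901 without 1 library. In Combination against Palbociclib cultures LCN2 ran from -0.71 to 0.30, KLK10 from -0.43 to 0.16 and KLK6 from -0.18 to 0.0189, and LCN2 in Telaglenastat against Control cultures from -0.70 to 1.47. In Telaglenastat tumors against cultures LCN2 turned to -0.23 with the replicate block and ran from -0.43 to 1.76, and KLK10 from -0.14 to 0.41.

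Over all genes, calls in Combination against Telaglenastat tumors fell from 2794 to 1778 in the fit of all libraries. In cultures (0 or 1 call) DESeq2 gave 0 to 100 calls and no filter 42 to 752, highest in Combination against Telaglenastat cultures, which had 335 in the fit of all libraries and 916 without Telaglenastat culture replicate 1. Telaglenastat tumors against cultures fell from 6583 to 3747 with compared groups only, 3035 with the replicate block and 3438 with the block and GC correction. Combination tumors against cultures fell from 5684 to 3267 with the block. The difference of differences fell from 2646 to 1390 with compared groups only, 1163 with GC correction, 975 with both block and GC correction and 1718 without Combination culture replicate 2. Groups of 3 cultures and at most 15 reads per culture library limit KLK11 and CALB1.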
